A study of Mus musculus with 12 samples.

Results

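The genes described here act outside the cell on Wnt signalling. They are 5 Wnt ligands (Wnt2b, Wnt4, Wnt5a, Wnt6 and Wnt11), the R-spondin Rspo3, and 4 secreted proteins classed as Wnt antagonists (Wif1, Dkk2, Dkk3 and Sfrp1). They were taken by symbol from the table of raw counts, and all 10 were found among its 18514 genes, in colorectal tissue of 12 mice with 1 library per mouse. The study asked how swimming changes gene expression in mice with colitis-associated colorectal cancer, and tissue of 3 male C57BL/6 mice per group, out of larger groups and bought at 4 weeks of age, was sequenced. Ctrl mice had plain water and did not swim, and Ctrl_Swim mice had plain water and swam. Model mice were injected once with the carcinogen azoxymethane (AOM) at 10 mg/kg. They then drank 2% dextran sulfate sodium (DSS), an irritant of the colonic epithelium, for 7 days followed by 2 weeks of water, in 3 such cycles. Model_Swim mice received AOM/DSS and swam. Swimming lasted up to 90 min per day and began 2 months before the injection, while mice that did not train were placed in shallow water. Tumours were not sequenced apart from the other tissue as far as the sources used here state, so each value belongs to a mixture of tissues, in which fewer cells of a type and less RNA per cell cannot be told apart.

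Wnt ligands are lipid-modified proteins that bind Frizzled receptors and LRP5 or LRP6 and thereby stabilise β-catenin, which with TCF and LEF factors switches on target genes. In the colon this pathway keeps the stem cells at the crypt base dividing, and most of its ligands and R-spondins come from the mesenchyme beneath the epithelium. Wnt5a and Wnt11 are best known for signalling without β-catenin, and R-spondins raise the number of Frizzled receptors on the surface through Lgr receptors. WIF1 and secreted Frizzled-related proteins such as SFRP1 bind Wnt proteins directly, and Dickkopf proteins such as DKK2 bind LRP5 and LRP6. DKK3 is a divergent Dickkopf protein whose action on the pathway differs between settings. Several antagonists, Wif1 and Dkk2 among them, are also known as genes that β-catenin switches on.

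Wif1, Dkk2 and Wnt6 are shown with their upstream sequence because they varied together across the libraries, and Wnt11 because the window at its first start alone held the core letters of a TCF/LEF site. The windows are from RefSeq on GRCm38.p6, where 6 of the 10 genes had at least one (Wnt2b, Wnt4, Wnt6, Wnt11, Wif1 and Dkk2). Each reads 5′ to 3′ on the gene's strand and ends at the base before the transcription start, except that of Wif1, which ends at the first base before its earliest annotated exon. Capitals mark matches to the core of a TCF/LEF site, spelled TCAAAG, or to a TATA box, spelled TATAAA. Both strands were searched, so a match on the opposite strand reads CTTTGA for the former motif and, for the latter one, TTTATA. Matches did not overlap each other.
Wif1, chr10:121033754-121033959, plus strand: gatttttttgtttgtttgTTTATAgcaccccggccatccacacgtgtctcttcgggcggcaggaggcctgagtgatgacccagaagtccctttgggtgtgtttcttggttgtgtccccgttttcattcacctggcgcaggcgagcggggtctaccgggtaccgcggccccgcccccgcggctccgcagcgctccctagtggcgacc
Dkk2, chr3:132085042-132085291, plus strand: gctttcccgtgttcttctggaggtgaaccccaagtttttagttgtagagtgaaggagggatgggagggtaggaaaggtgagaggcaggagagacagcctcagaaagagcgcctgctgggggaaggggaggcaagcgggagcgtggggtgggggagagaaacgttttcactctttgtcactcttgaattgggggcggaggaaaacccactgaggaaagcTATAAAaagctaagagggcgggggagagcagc
Wnt6, chr1:74771642-74771891, plus strand: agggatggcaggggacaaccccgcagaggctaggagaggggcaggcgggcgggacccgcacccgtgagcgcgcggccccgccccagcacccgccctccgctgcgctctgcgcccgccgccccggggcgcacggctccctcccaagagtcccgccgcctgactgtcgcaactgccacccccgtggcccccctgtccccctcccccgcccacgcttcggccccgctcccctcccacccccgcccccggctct
Wnt11, chr7:98834862-98835111, plus strand: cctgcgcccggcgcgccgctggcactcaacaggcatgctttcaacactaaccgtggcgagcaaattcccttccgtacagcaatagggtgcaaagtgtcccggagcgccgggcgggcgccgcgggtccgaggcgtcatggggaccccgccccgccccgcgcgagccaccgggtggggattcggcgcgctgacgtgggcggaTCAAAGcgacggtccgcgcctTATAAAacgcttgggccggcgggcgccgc

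Within the 250 bases before the start, Dkk2 had TATAAA 32 bases upstream and Wnt11 had it 29 bases upstream, with TCAAAG 50 bases upstream in Wnt11. The match in Wif1 lay 232 bases before its RefSeq start. Wnt6 held neither motif, and GC content was 79.6% in the Wnt6 window, 55.6% in that of Dkk2, 62.8% in that of Wif1 and 70.8% in that of Wnt11, beside a median of 52.4% over all windows. Of 32851 windows of the same length, 13.8% held the TCF/LEF core and 12.4% the TATA box on either strand. These matches describe letters only, and neither motif was found in all 3 windows of the genes that varied together.

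Library totals lay between 17256953 and 19451055 counts. Levels within a gene are given in CPM (counts relative to library size, scaled between libraries by TMM, a method that sets most genes equal), in which a gene with 0 counts may have been present at up to 3 counts, or 0.153 to 0.172 CPM. All 10 genes passed the filter on low counts, with 15484 genes, and the lowest count of any was 8, for Wnt6 in Ctrl 1. Markers of colon epithelium were abundant in every library, at a summed 10353 to 15527 CPM over 10 genes. Other tissue was present unevenly. The summed CPM of 19 pancreatic acinar genes was 53016 in Model 1 and 25932 in Model 3 and 173 to 468 in the other libraries. The sum of 12 genes of squamous epithelium, such as Krt5 and Krt14, was 844 to 2015 CPM in Ctrl_Swim 4, Model 1, Model 2, Model_Swim 2 and Model_Swim 3 and 9.63 to 169 CPM in the others.

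Compared between genes per transcript length, in FPKM (fragments per kilobase of transcript, relative to library size), the antagonists Dkk3 and Sfrp1 stood highest in Ctrl mice, at 11.3 ± 1.60 and 8.05 ± 0.87 (SD, n = 3). Wnt2b followed at 4.12 ± 0.83, and these 3 did not overlap with each other or with the genes below them. Wnt5a at 1.97 ± 0.36, Rspo3 at 1.85 ± 0.27, Wnt4 at 1.37 ± 0.39 and Wif1 at 1.28 ± 0.32 came next, and each overlapped its neighbour in this order. Dkk2, Wnt6 and Wnt11 were lowest, at 0.354 ± 0.036, 0.321 ± 0.15 and 0.306 ± 0.086 FPKM, with overlapping ranges. In Model_Swim mice Wif1 stood first, at 20.5 ± 2.10 FPKM, and overlapped Dkk3 at 17.8 ± 1.48, which overlapped Sfrp1 at 16.7 ± 2.57. Wnt2b was again the most abundant ligand there, at 6.42 ± 0.96 FPKM.

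**Figure D1:**
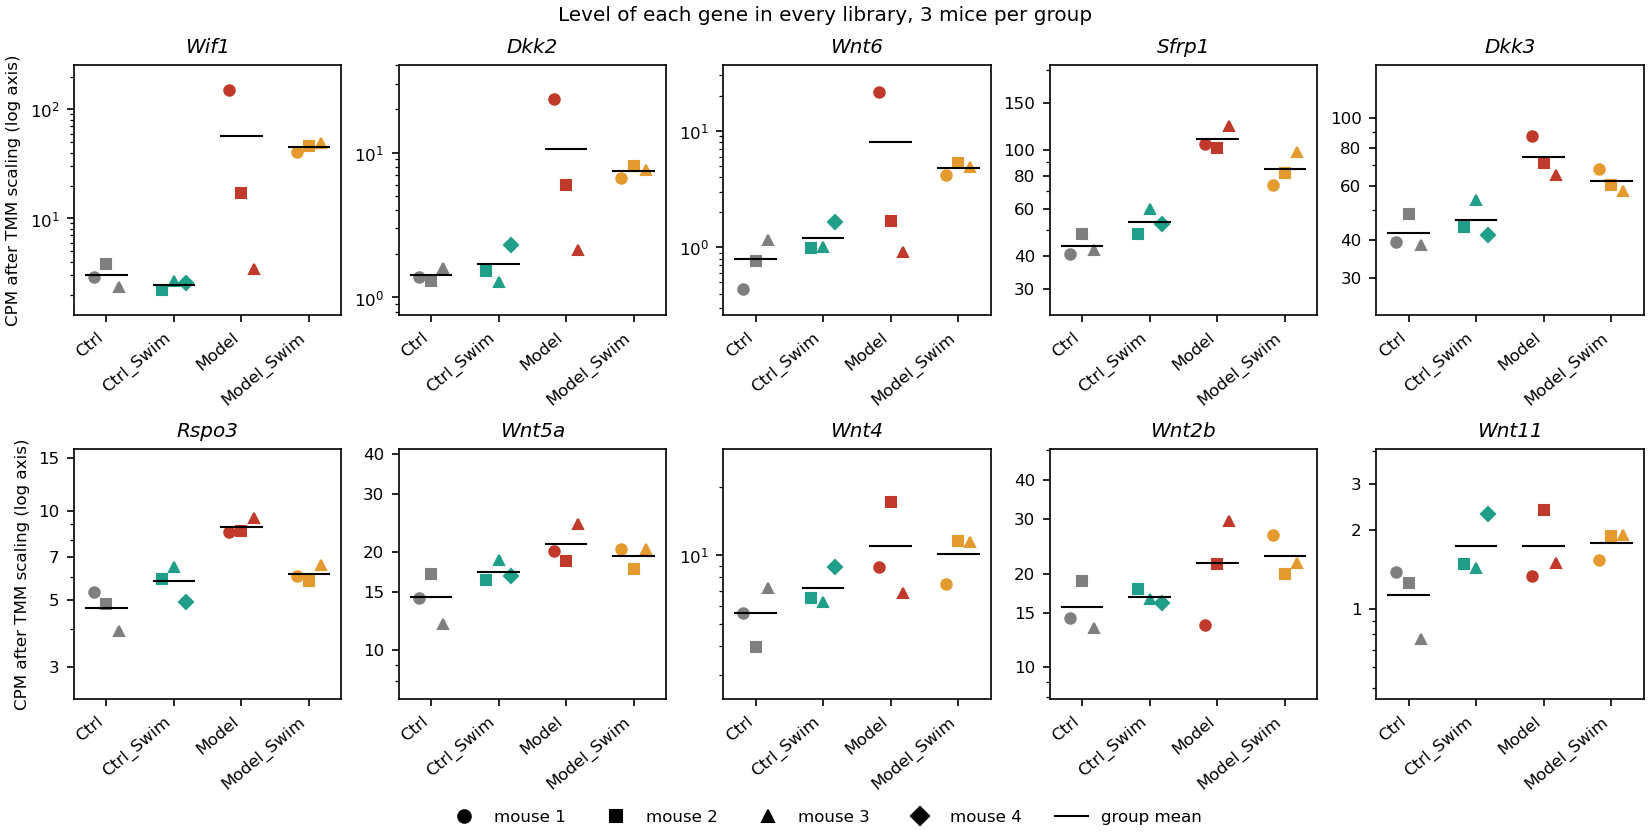
Level of each of the 10 genes in every library, in CPM after TMM scaling on a log axis that differs between panels, with 1 point per mouse and a line at the mean of each group of 3. Wif1, Dkk2 and Wnt6 spread widely among the 3 Model mice and lie close together in the 3 Model_Swim mice, while Sfrp1 and Dkk3 are higher in all 6 AOM/DSS mice than in the 6 others.

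Model was compared with Ctrl to find what AOM/DSS changed in mice that did not swim. All 10 genes had a log2 fold change above 0, beside 50.5% of all genes tested. By edgeR's quasi-likelihood test, with Benjamini-Hochberg adjustment over all genes, Wif1, Wnt6, Dkk2 and Sfrp1 passed the study's cutoffs (adjusted p under 0.05 and more than 2-fold). That is 4 of 10 genes, where 6.21% of all genes tested were past them in this direction. With the adjusted p alone 8 of 10 were higher, against 16.5% of all genes, and Wnt2b and Wnt11 did not pass. None was lower, where 1.22% of all genes passed the cutoffs in that direction. The groups did not overlap for Wnt5a, Rspo3, Dkk2, Dkk3 and Sfrp1, which is 5 of 10 beside 21.0% of all genes. The median log2 fold change was 0.94 over the 10 genes and 0.01 over all genes tested.

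Wif1 (chr10:121033960-121100650, plus strand, GENCODE M21 on GRCm38), which binds Wnt proteins through its WIF domain, was at 2.93, 3.82 and 2.36 CPM in Ctrl mice 1 to 3 and at 2.19, 2.66 and 2.56 CPM in Ctrl_Swim mice 2 to 4. It was at 150 CPM in Model 1, 17.2 in Model 2 and 3.44 in Model 3, and at 40.9, 45.8 and 49.7 CPM in the 3 Model_Swim mice. The lowest Model mouse lay inside the Ctrl range, whereas each Model_Swim mouse was above every mouse without AOM/DSS and above Model 2 and Model 3. In Model over Ctrl the log2 fold change was 4.22 ± 1.03 (SE), 18.7-fold, with an adjusted p of 0.0110. Without Model 1 it was 1.78 with an adjusted p of 0.0205. The call was lost in a fit of only Model and Ctrl, where the adjusted p was 0.0565, with limma on log2(FPKM + 1), and without the 5 libraries rich in squamous markers, where Model 3 alone stood for Model and the log2 fold change was 0.17.

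Dkk2 (chr3:132085292-132180304, plus strand), which blocks LRP5 and LRP6, followed the same order at a lower level. Its CPM was 1.38, 1.31 and 1.59 in Ctrl, 1.53, 1.28 and 2.30 in Ctrl_Swim, 23.6, 5.94 and 2.12 in Model, and 6.66, 8.10 and 7.63 in Model_Swim. Every Model mouse was above every Ctrl mouse, but Model 3 was below Ctrl_Swim 4. The log2 fold change in Model over Ctrl was 2.88 ± 0.68 with an adjusted p of 0.00939, and 1.51 with 0.0165 without Model 1. Without the 5 libraries rich in squamous markers it was 0.56 with an adjusted p of 0.303.

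Wnt6 (chr1:74771892-74785322, plus strand), a ligand made mainly by epithelia, was at 0.44, 0.76 and 1.15 CPM in Ctrl and at 0.99, 1.01 and 1.64 CPM in Ctrl_Swim. Among Model mice it was at 21.4, 1.69 and 0.92 CPM, and in Model_Swim at 4.13, 5.33 and 4.93 CPM. Model 1 was thus 23.3 times Model 3, and Model 3 lay within the Ctrl range. Its log2 fold change of 3.34 ± 0.99 in Model over Ctrl had an adjusted p of 0.0249, which became 0.213 without Model 1, where the log2 fold change was 0.74. The call for Wnt6 was lost in 11 of 23 alternatives, among them those without Ctrl 1, without Ctrl 2 and without Ctrl 3, and without the squamous-rich libraries its log2 fold change was 0.21.

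These 3 genes ordered the 6 AOM/DSS mice alike, with Model 1 highest, the Model_Swim mice next, then Model 2, and Model 3 lowest. Their coefficient of variation among Model mice was 142% for Wif1, 109% for Dkk2 and 145% for Wnt6, and among Model_Swim mice it was 9.67%, 9.87% and 12.8%. Over the 12 libraries, which share the group structure, Pearson's r of log2 CPM was 0.97 for Wif1 with Dkk2, 0.92 for Wif1 with Wnt6 and 0.95 for Dkk2 with Wnt6, and Spearman's rho was 0.74, 0.67 and 0.90. Without the 2 libraries farthest from the median on the first gene, r was 0.95, 0.86 and 0.89, and after removing group means it was 0.95, 0.91 and 0.94. The former values keep the differences between groups. The spread behind the latter lay mostly among the Model mice, so they rest on few libraries, and no value removes both. Of 15 listed β-catenin targets, 7 held this order (Axin2, Nkd1, Sp5, Tnfrsf19, Smoc2, Prox1 and Mmp7), beside 2.09% of all genes tested. Notum, an enzyme that strips the lipid from Wnt proteins, was at 0.11 to 0.55 CPM in the 6 mice without AOM/DSS, at 104, 9.21 and 0.63 CPM in Model and at 24.2, 27.8 and 29.7 CPM in Model_Swim. Prox1, a transcription factor of intestinal adenomas, was at 194, 22.8 and 12.1 CPM in Model and 61.8 to 68.3 CPM in Model_Swim, against 9.99 to 11.7 CPM without AOM/DSS. Among the 6 AOM/DSS mice, 9 of the 15 targets were highest in Model 1, beside 21.4% of all genes, and 12 were lowest in Model 3, beside 19.5%. Others ran differently, with Nkd2 and Cd44 lowest in Model 1 and Ephb2 lowest in Model 2. Axin2, the target used most widely as a readout, is named here after its values were seen, and was at 156, 59.5 and 40.8 CPM in Model and 75.4 to 81.4 CPM in Model_Swim.

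**Figure D2:**
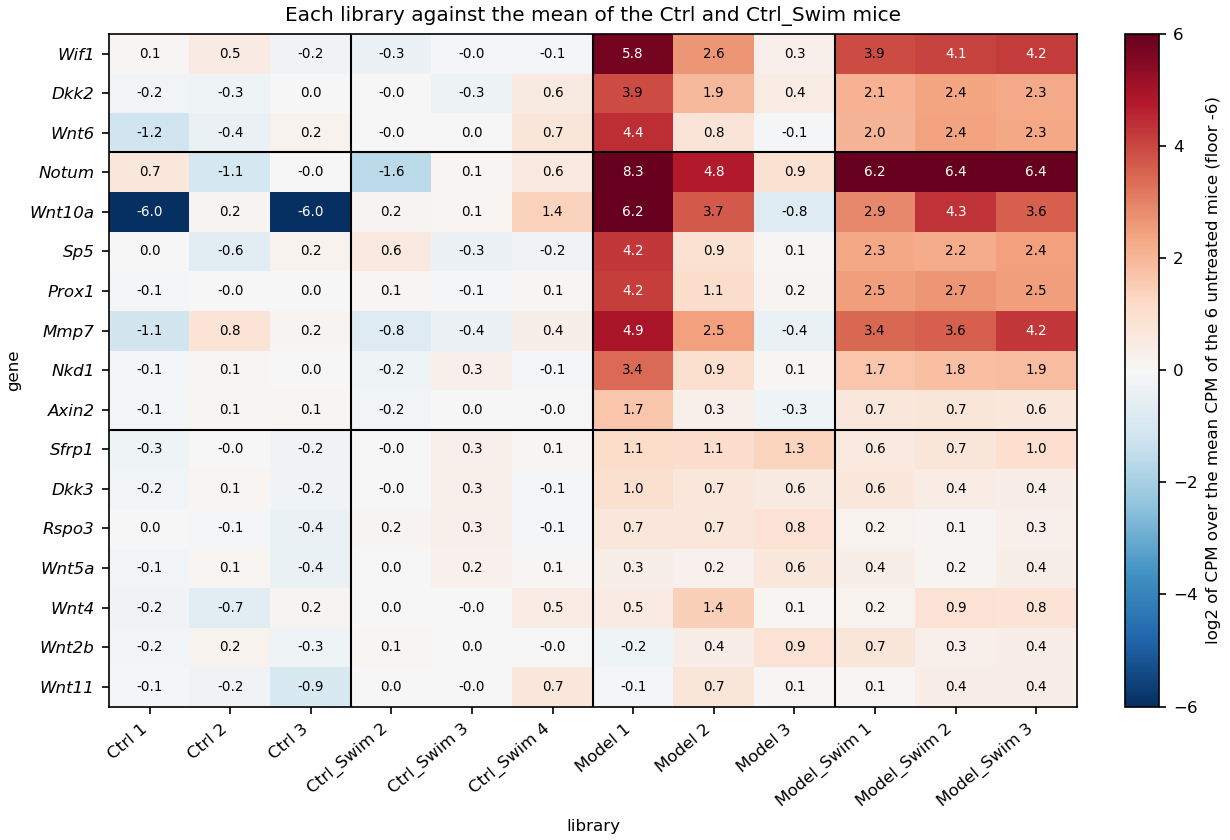
Each cell gives the log2 of a gene's CPM in a library over its mean in the 6 mice without AOM/DSS, with Wnt10a at the lower limit of the scale in Ctrl 1 and Ctrl 3, where its count is 0. Top, Wif1, Dkk2 and Wnt6, middle, other Wnt genes highest in Model 1, some picked after seeing their values, and bottom, the 7 other members. Model 1 and the 3 Model_Swim libraries are high in the upper 2 blocks, while Model 3 is near the mice without AOM/DSS.

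The sums of squamous and of matrix genes rose with these 3 genes, for matrix genes mainly between the groups and little within them. Over the 12 libraries, which share the groups, the r of the squamous sum was 0.71 with Wif1 (rho 0.59), 0.80 with Dkk2 (rho 0.86) and 0.71 with Wnt6 (rho 0.75). Without Ctrl_Swim 3 and Model 2 it was 0.71, 0.79 and 0.80, and after removing group means 0.49, 0.65 and 0.44. The r of the sum of 10 fibroblast and matrix genes was 0.75 with Wif1 (rho 0.82), 0.77 with Dkk2 (rho 0.62) and 0.61 with Wnt6 (rho 0.52). Without Model 1 and Model 2 it was 0.68, 0.69 and 0.55, and after removing group means 0.19, 0.084 and 0.059. Single libraries differed from this. The matrix sum was 3070 CPM in Model 3, with Wif1 at 3.44 CPM, and 2369 CPM in Model_Swim 1, with Wif1 at 40.9 CPM. Model 1, the highest, held both acinar and squamous genes, but Model 3 held the second largest acinar sum and had Wif1 near the Ctrl level. The Model_Swim mice had acinar sums of 173 to 221 CPM, with Wif1 at 40.9 CPM or more. The squamous sum was 169 CPM in Model_Swim 1 and 1128 and 1081 CPM in Model_Swim 2 and 3, whereas Wif1 differed by 1.21-fold among them. Ctrl_Swim 4 had 844 CPM of squamous genes with Wif1 at 2.56 CPM, inside the range of the other mice without AOM/DSS, and with the highest Wnt6 and Dkk2 of those mice. The part of other tissue in the values of the 3 genes was not tested.

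Sfrp1 (chr8:23411502-23449632, plus strand), which binds Wnt ligands and Frizzled receptors and is made by stromal and muscle cells, was at a far higher level and varied less. It was at 40.5, 48.4 and 42.1 CPM in Ctrl, 48.4, 59.7 and 52.6 CPM in Ctrl_Swim, 105, 102 and 123 CPM in Model, and 73.6, 81.6 and 98.2 CPM in Model_Swim. Every AOM/DSS mouse was above every other mouse, and every Model mouse was above every Model_Swim mouse. The log2 fold change in Model over Ctrl was 1.33 ± 0.12 with an adjusted p of 0.000314, the smallest among the 10 genes, and it kept its call in all 23 alternatives, with values of 1.20 to 1.48.

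Dkk3 (chr7:112116017-112159057, minus strand) was at 39.4, 48.5 and 38.6 CPM in Ctrl, 44.0, 54.1 and 41.6 CPM in Ctrl_Swim, 87.2, 71.5 and 65.1 CPM in Model, and 68.4, 60.4 and 57.6 CPM in Model_Swim. It too was higher in each of the 6 AOM/DSS mice than in any other mouse. A log2 fold change of 0.82 ± 0.14 in Model over Ctrl had an adjusted p of 0.00191 and was below 2-fold.

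Rspo3 (chr10:29452416-29535867, minus strand), a stromal factor that sustains the crypt stem cells, was at 5.35, 4.85 and 3.96 CPM in Ctrl, 5.92, 6.49 and 4.96 CPM in Ctrl_Swim, 8.47, 8.55 and 9.47 CPM in Model, and 6.05, 5.82 and 6.57 CPM in Model_Swim. The 3 Model mice lay above all 9 others, and the Model_Swim range overlapped that of Ctrl_Swim. In Model over Ctrl the log2 fold change was 0.90 ± 0.16 with an adjusted p of 0.00237, and it passed the 2-fold cutoff only when Ctrl 1 was left out, at 1.02.

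Wnt5a (chr14:28504750-28527448, plus strand), a ligand of the non-canonical pathway made by mesenchymal cells, was at 14.4, 17.1 and 11.98 CPM in Ctrl, 16.4, 18.8 and 16.8 CPM in Ctrl_Swim, 20.1, 18.7 and 24.3 CPM in Model, and 20.3, 17.7 and 20.4 CPM in Model_Swim. Model mice were above Ctrl mice, while Ctrl_Swim 3 was just above Model 2. For Model over Ctrl a log2 fold change of 0.54 ± 0.14 had an adjusted p of 0.0148. Exons of an antisense gene overlap Wnt5a and Rspo3, and of a pseudogene on the other strand Wnt11, and since the strand setting of the counting is not given in the sources used here, their reads may be shared.

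Beside Sfrp1, Dkk3, Rspo3 and Wnt5a, markers of fibroblasts and matrix were also higher in Model. The summed CPM of 10 such genes, Col3a1, Dcn and Col1a2 among them, was 1822 to 1982 in Ctrl, 1655 to 1982 in Ctrl_Swim, 3070 to 3191 in Model and 2369 to 2959 in Model_Swim, so that it separated the groups as Sfrp1 did. All 10 had a positive log2 fold change in Model over Ctrl, with 8 past the adjusted p and only Col1a1 past the 2-fold cutoff as well, and a median of 0.77. Over the 12 libraries the r of that sum with Sfrp1 was 0.94 (rho 0.87), 0.92 without Model 1 and Model 2, and 0.61 after removing group means. For Dkk3 it was 0.86 (rho 0.87), 0.79 and 0.05, and for Rspo3 0.81 (rho 0.80), 0.71 and 0.46. For Wnt5a it was 0.69 (rho 0.75), 0.71 and 0.14 in the same order. Of 10 leukocyte genes 7 were past the cutoffs in Model, with a summed 1557 to 2132 CPM against 1068 to 1551 CPM in Ctrl. Of 10 genes of colon epithelium none was past the cutoffs, and 8 were lower by the adjusted p alone, with a summed 10353 to 10698 CPM in Model and 13671 to 15527 CPM in Ctrl. The list of subepithelial fibroblasts, the cells best known as a source of Wnt5a, had 0 of 8 genes past the adjusted p and a median of 0.19, with all 8 above 0. Its summed CPM was 137 to 170 in Ctrl and 177 to 197 in Model, without overlap. Its r over the 12 libraries was 0.83 with Wnt5a (rho 0.78), 0.57 without Ctrl 1 and Ctrl 3, and 0.57 after removing group means. With Dkk3 it was 0.91 (rho 0.89), 0.89 and 0.92 in the same order. The part of these tissue shares in the values of the 4 genes was not tested.

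Wnt4 (chr4:137277489-137299726, plus strand), a ligand of epithelium and mesenchyme, was at 5.57, 3.98 and 7.20 CPM in Ctrl, 6.52, 6.22 and 8.84 CPM in Ctrl_Swim, 8.90, 17.2 and 6.83 CPM in Model, and 7.49, 11.6 and 11.5 CPM in Model_Swim. Model 2 was highest and Model 3 lay within the Ctrl range. The log2 fold change in Model over Ctrl was 0.97 ± 0.34 with an adjusted p of 0.0483, which became 0.217 without Model 2, the highest value over the fits that left out 1 mouse. Without Model 1, without Model 3 and without both, Wnt4 passed both cutoffs, with log2 fold changes of 1.12, 1.23 and 1.60. The sum of squamous genes was largest in the same mouse, 2015 CPM, and over the 12 libraries its r with Wnt4 was 0.86 (rho 0.92), 0.86 without Ctrl_Swim 3 and Model 2, and 0.72 after removing group means. Without the 5 squamous-rich libraries the log2 fold change of Wnt4 was 0.28 with an adjusted p of 0.534.

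Wnt2b (chr3:104945272-104961921, minus strand), a canonical ligand of crypt mesenchyme, was at 14.4, 18.97 and 13.4 CPM in Ctrl, 17.9, 16.6 and 16.1 CPM in Ctrl_Swim, 13.7, 21.6 and 29.6 CPM in Model, and 26.7, 19.9 and 21.6 CPM in Model_Swim. Model 1, the mouse with the highest Wif1, had the lowest Wnt2b of the 6 AOM/DSS mice, and Model 3 had the highest. The summed CPM of 6 adipocyte genes was 35 to 80 in Ctrl, 55 to 82 in Ctrl_Swim, 44, 39 and 235 in Model and 160, 74 and 131 in Model_Swim. Its r with Wnt2b over the 12 libraries was 0.75 (rho 0.62), 0.38 without Model 3 and Model_Swim 1, and 0.70 after removing group means, and its part in Wnt2b was not tested. The log2 fold change in Model over Ctrl was 0.47 ± 0.24 with an adjusted p of 0.143, and 0.73 with an adjusted p of 0.0126 without Model 1. After removing group means, the r of Wnt2b was -0.88 with Dkk2, -0.83 with Wnt6 and -0.81 with Wif1 over the 12 libraries, whereas without removing them it was 0.13, 0.00 and 0.18. The negative values rest mostly on Model 1 and Model 3, which had opposite extremes of Wnt2b and of these genes. No value without these mice is given.

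Wnt11 (chr7:98835112-98855195, plus strand), a non-canonical ligand, had the lowest mean FPKM in all groups but Ctrl_Swim, where Dkk2 was lower with an overlapping range, and it had 14 to 45 counts in each library. Its CPM was 1.38, 1.25 and 0.77 in Ctrl, 1.48, 1.44 and 2.30 in Ctrl_Swim, 1.34, 2.40 and 1.49 in Model, and 1.54, 1.90 and 1.91 in Model_Swim. The Ctrl_Swim and the Model_Swim mice were above the Ctrl mice, and the other groups overlapped. No comparison of Wnt11 passed the adjusted p, and in Model over Ctrl its log2 fold change was 0.62 ± 0.34 with an adjusted p of 0.185.

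**Figure D3:**
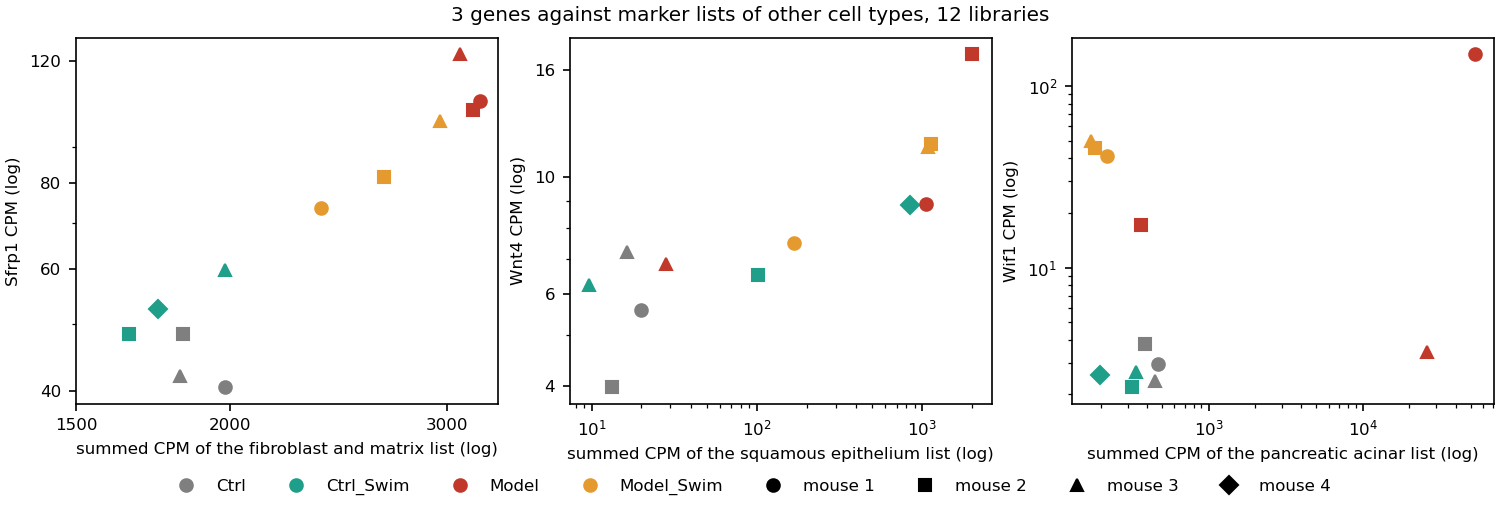
Sfrp1 against the summed CPM of 10 fibroblast and matrix genes, Wnt4 against that of 12 squamous genes and Wif1 against that of 19 pancreatic acinar genes, with 1 point per library and log axes. Sfrp1 and Wnt4 are higher where their lists are higher, while Wif1 is high in Model_Swim libraries with 173 to 221 CPM of acinar genes and low in Model 3 with 25932 CPM.

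Model_Swim was compared with Ctrl_Swim for the effect of AOM/DSS among mice that swam. Wif1 rose 18.4-fold, a log2 fold change of 4.20 ± 1.05 with an adjusted p of 0.0444, and was the single one of 10 genes past the cutoffs, where 0.924% of all genes were. Sfrp1 was higher by the adjusted p, with a log2 fold change of 0.66 ± 0.12 and an adjusted p of 0.0178, which makes 2 of 10 genes against 3.49% of all. Dkk2, at 2.13 ± 0.66, had an adjusted p of 0.0897, and Wnt6, at 1.98 ± 0.93, had 0.240, although in both the Model_Swim mice were above all Ctrl_Swim mice. The groups did not overlap for 6 of 10 genes, namely Wnt2b, Wnt6, Wif1, Dkk2, Dkk3 and Sfrp1, beside 15.9% of all genes. These tests borrow the spread among Model mice. Without Model 1, Wif1, Dkk2 and Wnt6 were all past the cutoffs, with adjusted p of 0.00283, 0.00969 and 0.0145. When Ctrl, Ctrl_Swim or Model_Swim mice were left out in turn the call for Wif1 was lost each time, with an adjusted p of up to 0.139, while its log2 fold change stayed between 4.11 and 4.26. The call was also lost with the replicate block and with limma on log2(FPKM + 1) without a filter. Over all 23 alternatives the adjusted p was at most 0.173 and the log2 fold change at least 3.33.

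Averaged over swimming, the 6 AOM/DSS mice were compared with the 6 others. Wif1 at a log2 fold change of 4.21 ± 0.74, Wnt6 at 2.66 ± 0.68 and Dkk2 at 2.503 ± 0.48 passed the cutoffs, 3 of 10 genes beside 3.54% of all, with adjusted p of 0.00191, 0.0123 and 0.00292. Without Model 1 these log2 fold changes were 2.99, 1.36 and 1.81, and all 3 were still past the cutoffs. Wnt6 lost this call with limma on log2(FPKM + 1), with or without its filter, with the replicate block and without the squamous-rich libraries, where the adjusted p was 0.061 to 0.084. Sfrp1, at 0.99 ± 0.09 with an adjusted p of 6.27e-05, was just short of 2-fold and passed that cutoff in 8 of 22 alternatives. With Wnt4, Wnt5a, Rspo3 and Dkk3, 8 of 10 genes were higher by the adjusted p alone, against 17.0% of all genes. Only Sfrp1 and Dkk3 separated all 6 from all 6, beside 5.97% of genes.

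**Figure D4:**
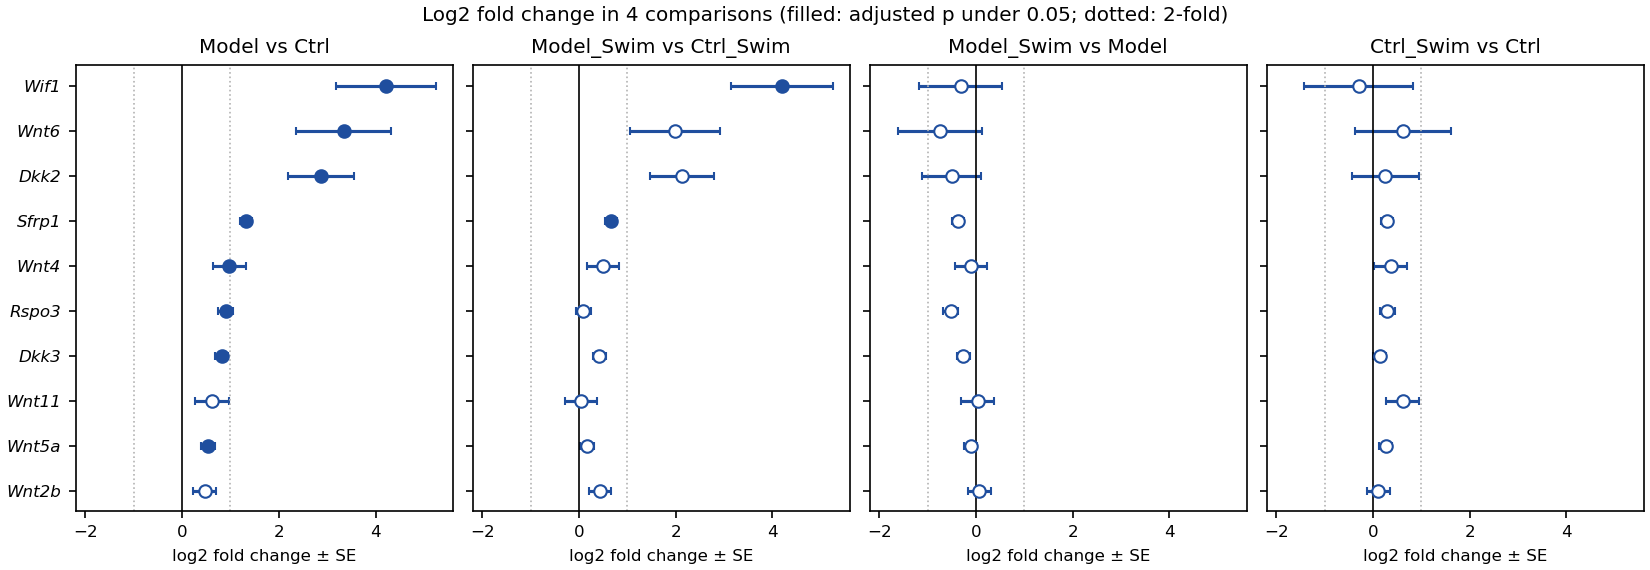
Log2 fold change with its standard error for the 10 genes in 4 comparisons from 1 edgeR fit of 12 libraries, filled where the adjusted p is under 0.05, with dotted lines at 2-fold. The left panels (AOM/DSS effects) have 8 and 2 filled points, and the right panels (swimming effects) have none.

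Model_Swim was compared with Model to find what swimming changed once AOM/DSS was given. None of the 10 genes passed the cutoffs by edgeR, DESeq2 or limma, where 0.071% of all genes did by edgeR and 115 of 18514 by DESeq2. At an unadjusted p under 0.05, 2 of 10 were lower, beside 6.91% of all genes, and none was higher, beside 6.66%. The log2 difference was below 0 for 8 of 10 genes, beside 51.8% of all. The 2 genes were Rspo3, with a log2 difference of -0.52 ± 0.16, p of 0.00637 and adjusted p of 0.221, and Sfrp1, with -0.38 ± 0.12, p of 0.00971 and adjusted p of 0.240. In both, all 3 Model_Swim mice lay below all 3 Model mice, as in 8.57% of all genes. The 95% interval of the ratio Model_Swim to Model was 0.55 to 0.88 for Rspo3 and 0.64 to 0.93 for Sfrp1. The fibroblast and matrix sum did not overlap between these groups either, and all 10 of its genes were lower in Model_Swim with 0 past the adjusted p. For Wif1 the ratio was 0.80 with an interval of 0.22 to 2.94, for Dkk2 0.71 with 0.28 to 1.80 and for Wnt6 0.60 with 0.16 to 2.23. These intervals hold a 2-fold decrease for all 3 genes and a 2-fold increase for Wif1 and Wnt6. The direction of these 3 changed with the setting. Without Model 1 the log2 differences were 2.13 for Wif1, 0.88 for Dkk2 and 1.86 for Wnt6, that is, higher in Model_Swim, with adjusted p of 0.122, 0.340 and 0.126. With all 12 libraries, limma on log2(FPKM + 0.1) gave 1.09 for Wif1, 0.45 for Wnt6 and 0.10 for Dkk2. With Model 2 as the only Model library, assumed to vary like the others, Wif1 was past the cutoffs as higher in Model_Swim, with an adjusted p of 0.00899.

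Ctrl_Swim was compared with Ctrl for the effect of swimming alone. By edgeR, DESeq2 and limma 0 of 10 genes passed the cutoffs, where 0.168% of all genes did by edgeR and 79 of 18514 by DESeq2. At an unadjusted p under 0.05 only Sfrp1 was higher, beside 8.14% of all genes. Its log2 fold change was 0.30 ± 0.12 with p of 0.0349 and an adjusted p of 0.252. The fold changes of 9 of 10 genes were above 0, with Wif1 at -0.30 ± 1.13, beside 50.0% of all genes. Wnt11 alone did not overlap between the groups, as in 12.6% of genes, with a log2 fold change of 0.61 ± 0.34 and an adjusted p of 0.370. The log2 fold change was also above 0 for 6 of 6 endothelial, 6 of 6 glial and 8 of 8 neuronal markers. So it was for 12 of 12 squamous, 6 of 6 skeletal muscle, 9 of 10 leukocyte and 7 of 8 subepithelial markers. It was above 0 for 6 of 10 fibroblast and 5 of 10 smooth muscle markers. For colon epithelium this was 0 of 10, for adipocytes 1 of 6, for mesothelium 1 of 6 and for acinar genes 0 of 16. Their part in the values of the 10 genes was not tested.

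The interaction asks whether swimming changed the genes differently with and without AOM/DSS. It was below 0 for all 10 genes, beside 50.0% of all genes, and no gene of the 10 passed the cutoffs by edgeR, DESeq2 or limma, nor did any of the 15484 by edgeR (0.0%). Of all genes DESeq2 called 220 of 18514, and limma on log2(FPKM + 1) 0 of 13851. Without Model 3 edgeR called 248 of 15681. At an unadjusted p under 0.05 Rspo3 and Sfrp1 were lower, 2 of 10 beside 9.45% of all genes. The interaction was -0.81 ± 0.22 for Rspo3, with an adjusted p of 0.122, and -0.67 ± 0.17 for Sfrp1, with 0.117. Over the 22 alternatives the adjusted p ran from 0.0495 to 0.409 for Rspo3 and from 0.0134 to 0.409 for Sfrp1. Neither gene passed both cutoffs in any of them. Both genes had a higher mean in Ctrl_Swim than in Ctrl, with overlapping mice, and all Model_Swim mice were below all Model mice, but neither difference passed the adjusted p for either gene. For Wif1 it was -0.02 ± 1.46, and without Model 1 it was 2.41 with an adjusted p of 0.0994.

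Summed per transcript length, the 4 antagonists, with Dkk3 counted among them, outweighed the 6 agonists in every library. Their sum was 19.4 to 24.1 FPKM in Ctrl, 22.8 to 29.6 in Ctrl_Swim, 120, 51.2 and 45.01 in Model and 54.0 to 60.7 in Model_Swim. The sum of agonists was 9.15 to 10.99, 12.1 to 13.6, 18.5 to 22.6 and 16.6 to 17.7 FPKM in the same order. The ratio of antagonists to agonists was thus 2.002 to 2.20 in Ctrl and 1.88 to 2.28 in Ctrl_Swim, and lay above both ranges in all 6 AOM/DSS mice, at 5.31, 2.72 and 2.43 in Model and 3.15 to 3.44 in Model_Swim. Wif1 made up 4.15% to 6.73% of the antagonists in mice without AOM/DSS, 56.4%, 15.5% and 3.45% in Model 1 to 3, and 33.9% to 37.1% in Model_Swim. Dkk3, whose action differs between settings, was at 10.3 to 13.1 FPKM in Ctrl. Without it the other antagonists did not outweigh the agonists in any Ctrl mouse. Other Wnt ligands and antagonists, Wnt5b and Igfbp4 among them, are in neither sum. These are sums of RNA and carry no weight for how strongly each protein acts.

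**Figure D5:**
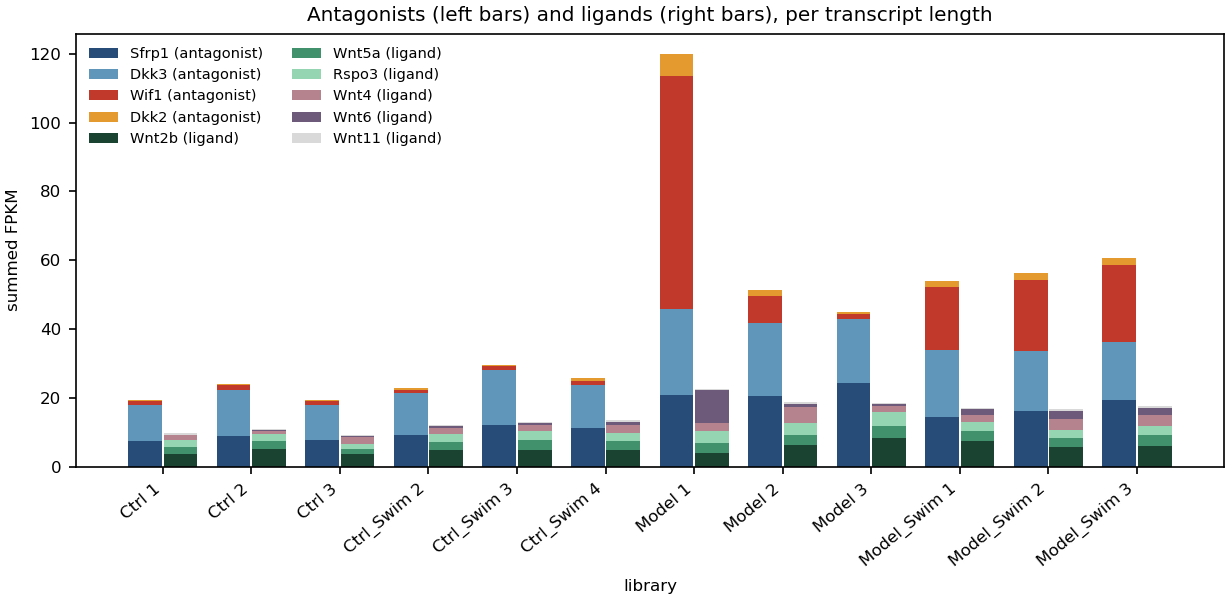
Stacked FPKM of the 4 antagonists (left bar) and of the 5 ligands with Rspo3 (right bar) in each library. The antagonist bar is 120 FPKM in Model 1, of which Wif1 is 56.4%, and Wif1 is 33.9% to 37.1% of it in the 3 Model_Swim mice.

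The other genes of the pathway were taken from 5 lists of 89 genes, of which 85 were in the tables and 78 were tested. In Model over Ctrl 16 of the 78 were past the cutoffs as higher, beside 6.21% of all genes, and 1 as lower, beside 1.22%, with a median log2 fold change of 0.32. Of these 17 genes 9 were past the cutoffs without Model 1, and 6 (Wnt10a, Wnt16, Notum, Sostdc1, Igfbp4 and Lgr6) in every fit that left out 1 mouse. Of 11 ligands and R-spondins tested, 4 were higher, Wnt10a at 6.12 ± 1.51, Wnt7b at 4.86 ± 1.53, Wnt16 at 4.24 ± 1.04 and Wnt3 at 2.57 ± 0.91, and none was lower, with Rspo2 at -0.98 ± 0.42 and an unadjusted p of 0.0396. Wnt10a begins 6194 bases after the end of Wnt6 on the same strand (chr1:74791516-74804179) and was at 14.05, 2.45 and 0.11 CPM in Model and 1.43, 3.86 and 2.33 CPM in Model_Swim. As in Wnt6, Model 1 was highest and Model 3 lowest of the AOM/DSS mice, but Model 2 lay among the Model_Swim mice. Wnt7b was highest in Model 2, at 4.41 CPM, where the squamous sum and Wnt4 were also highest. Without Model 1 the log2 fold change of Wnt10a was 4.04. Wnt3 lost its call in 9 of the fits that left out 1 mouse, that without Model 1 among them. Wnt7b lost its call in 4 of them, without Model 2 and without each Ctrl mouse. The most abundant gene of this list by FPKM, Wnt5b, was at 2.98 to 3.71 CPM in Ctrl and 2.90 to 4.25 CPM in Model, with a log2 fold change of 0.14 ± 0.22.

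Of 9 further antagonists tested, 5 were higher and none lower, and their median was 1.18. They were Notum at 6.75 ± 1.51, Sostdc1 at 1.58 ± 0.38, Igfbp4 at 1.25 ± 0.15, Draxin at 1.18 ± 0.41 and Frzb at 1.05 ± 0.20. Without Model 1 Notum was at 3.82 and still past the cutoffs. Draxin lost its call in 11 of the fits that left out 1 mouse, and Frzb in 2. Igfbp4, a secreted protein that binds insulin-like growth factors and is also reported to bind LRP6, was the most abundant, at 108 to 133 CPM in Ctrl and 233 to 324 CPM in Model. Unadjusted, none of the 9 was lower in Model over Ctrl. Of 23 receptors and co-receptors, Lgr6, a receptor of R-spondins, was higher at 5.72 ± 1.36 and Fzd9, a Frizzled receptor, lower at -1.38 ± 0.42. Lgr4, the most abundant of them, was at -0.14 ± 0.12. Of 20 genes of secretion and of the cytoplasm and nucleus, Lef1 at 3.06 ± 0.91 and Tcf7 at 1.09 ± 0.36, both partners of β-catenin, were higher and none was lower, and Ctnnb1, which encodes β-catenin, was at -0.08 ± 0.09. Of 15 targets, 4 were higher, Mmp7 at 3.43 ± 0.98, Sp5 at 2.92 ± 0.88, Prox1 at 2.86 ± 0.80 and Nkd1 at 2.19 ± 0.65, while Ccnd1, the most abundant, was at -0.08 ± 0.14. Without Model 1 the values were 1.52 for Mmp7, 0.64 for Sp5, 0.75 for Prox1 and 0.59 for Nkd1, and none of the 4 was past the cutoffs, nor were they without any 1 of the Ctrl mice. Lgr6 was at 4.27 without Model 1 and kept its call, while Lef1 at 1.91 and Tcf7 at 0.78 lost theirs. Over the fits that left out 1 mouse, Fzd9 lost its call in 5, Lef1 in 4 and Tcf7 in 8. In Model_Swim over Model 0 of the 78 passed the cutoffs by edgeR, where 0.071% of all genes did, and none of the list by DESeq2 or limma. At an unadjusted p under 0.05 by edgeR 0 were higher and 3 lower, beside 6.66% and 6.91% of all genes. By DESeq2 and by limma on log2(FPKM + 1) 2 were higher and 3 lower. In Model_Swim over Ctrl_Swim 2 of the 78 were past the cutoffs as higher by edgeR, beside 0.924% of all genes. These were Notum at 6.32 (adjusted p 0.0394) and Mmp7 at 3.97 (adjusted p 0.0470). By DESeq2 5 of 85 were higher, and by limma on log2(FPKM + 1) 1 of 67.

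The genes most like each member were sought among 13970 genes with a mean of at least 1 CPM, by Pearson's r of log2 CPM over the same 12 libraries, which share groups and tissue makeup. Wif1 was most like Wfdc18 (r = 0.986, rho = 0.909) and Mex3a (0.985 and 0.832), and Dkk2 was most like Ier3 (0.989 and 0.909) and Mex3a (0.989 and 0.902). Wnt6 was most like Atp10a (0.978) and Usp22 (0.973). After removing group means r was between 0.95 and 0.99 for these 3 members, where the spread left lay mostly among the Model mice. Sfrp1 was most like Colec12 (0.977) and Bgn (0.974), the latter encoding a matrix proteoglycan, with r of 0.64 and 0.54 after removing group means. Dkk3 was most like Il17rd (0.964) and Slc27a3 (0.948), Rspo3 most like Mknk1 (0.948) and P3h1 (0.931), and Wnt5a most like Adcy3 (0.950) and Bicc1 (0.931). The remaining pairs were Ahnak2 (0.934) and Pld2 (0.931) for Wnt4, Isl2 (0.950) and Pde7b (0.920) for Wnt2b, and Uggt2 (0.937) and Hspa12b (0.891) for Wnt11. With so many genes searched, values of this size are a description of these 12 libraries.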

How the data were processed

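Colorectal tissue RNA of 12 mice was measured by bulk RNA-seq. The labels name a mirVana kit and the study's methods TRIzol. Reads from stranded mRNA libraries were trimmed with Trimmomatic, aligned with HISAT2 to GRCm38.p6 and counted per gene with HTSeq-count. The authors deposited these counts without normalization, and FPKM values from Cufflinks, used here for levels between genes. Versions and annotation release are not given in the sources used here.

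Counts were scaled by TMM, filtered by filterByExpr (minimum count 10) and fitted over the 4 labelled groups with edgeR 4.0.16 in R 4.3.3. Intervals are 95%, from the fit's standard errors, and limits for 0 counts cover counting error only. Alternatives were DESeq2 1.42.0 (the study's tool), its size factors, no filter, only the groups compared, a replicate block, the adjusted p alone, acinar genes left out, limma 3.58.1 on log2(FPKM + 1) or log2(FPKM + 0.1) for a mean FPKM of at least 0.5 and on log2(FPKM + 1) without a filter, each mouse left out, and Model 1 and Model 3 left out. Leaving out the 5 libraries with over 500 CPM of squamous markers was chosen after seeing the data. On simulated data of 15484 genes for Model vs Ctrl, edgeR recovered 188 of 200 genes changed 4-fold, with 6 others called. The changed genes were picked at random above a low level. This rate thus does not describe genes as low as Wnt11 or as uneven among Model mice as Wif1, Dkk2 and Wnt6.

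Positions are from GENCODE M21. The members and lists were chosen with earlier results of these data known. Named were all members, per list up to 3 genes past the cutoffs with the largest change and the most abundant gene, and the 2 genes most like each member. Wnt3, Draxin, Frzb, Nkd1, Axin2, Rspo2, Wnt3a, Wnt7a, Wnt1, Lgr5 and Sfrp2 fall outside that rule and were chosen after their values were seen. So do Tnfrsf19, Smoc2, Nkd2, Cd44 and Ephb2, which were named for their order among the AOM/DSS mice once it was seen.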

Additional observations from a re-analysis of the deposited data

How the results depend on the processing

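Each group has 3 mice, and for Wif1, Dkk2 and Wnt6 1 Model mouse was near the controls and 1 far above them. In Model over Ctrl, Wnt6 lost its call without Model 1 and without each Ctrl mouse, while Wif1 and Dkk2 kept theirs in every fit that left out 1 mouse, with adjusted p up to 0.0471 and 0.0404. Of the alternative values of the 10 genes in the 6 comparisons, 1233 kept direction and call, 32 lost the call, 22 gained it with the same sign and 61 changed sign, 4 of them (Wif1) while gaining a call.

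For Model over Ctrl, where 4 members passed the cutoffs, the count was 2 with only the groups compared, 8 with the adjusted p alone, 2 with limma on log2(FPKM + 1), 1 without its filter, 1 without the squamous-rich libraries and 3 to 5 when 1 mouse was left out. For Model_Swim over Model and for the interaction, with 0, it was 1 (Wif1) without Model 1 and Model 3. Without the squamous-rich libraries it was 1 as well, but there 1 Model_Swim library is set against 1 Model library, so that this compares those libraries and tests no difference between the groups. For Model_Swim over Ctrl_Swim, with 1, it was 2 with DESeq2, 3 with only the groups compared, 0 with the replicate block, 2 with the adjusted p alone, 0 with limma without its filter, 3 without Model 1 and Model 3, 2 without the squamous-rich libraries and 0 to 3 when 1 mouse was left out. For AOM/DSS averaged over swimming, with 3, it was 8 with the adjusted p alone, 2 with limma on log2(FPKM + 1) with or without its filter, 2 without the squamous-rich libraries and 3 to 4 when 1 mouse was left out. Of the wider list 16 were higher in Model, and 6 with only the groups compared, 10 with the block, 1 with limma on log2(FPKM + 1), 7 on log2(FPKM + 0.1), 1 without its filter, 4 without the squamous-rich libraries and 7 to 20 when 1 mouse was left out. Of the same list 1 was lower, and 0 with limma on log2(FPKM + 1) with or without its filter, 2 without Model 1 and Model 3, 2 without the squamous-rich libraries and 0 to 1 when 1 mouse was left out. The causes were not tested beyond the fewer mice and genes that enter such fits.

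Signs turned in Model_Swim over Model, where the log2 difference of Wif1 was 0.67 with the replicate block, 0.89 with limma on log2(FPKM + 1) with or without its filter, 1.09 on log2(FPKM + 0.1), 1.42 without Model 1 and Model 3, 3.57 without the squamous-rich libraries and -0.88 to 2.13 when 1 mouse was left out. That of Wnt6 was, in the same order, 0.064, 0.067, 0.45, 1.52, 2.16 and -1.27 to 1.86. That of Dkk2 was 0.10 with limma on log2(FPKM + 0.1), 0.35 without Model 1 and Model 3, 1.65 without the squamous-rich libraries and -0.98 to 0.88 when 1 mouse was left out. Without Model 1 and Model 3, Wnt5a was at 0.072 and Wnt11 at -0.41, and without the squamous-rich libraries Wnt2b was at -0.15, Wnt4 at 0.13 and Dkk3 at 0.071. Leaving out 1 mouse gave -0.18 to 0.38 for Wnt2b, -0.35 to 0.36 for Wnt4, -0.20 to 0.010 for Wnt5a and -0.13 to 0.32 for Wnt11. The interaction of Wif1 was 0.45 with the block, 0.97 with limma on log2(FPKM + 1) with or without its filter, 1.23 on log2(FPKM + 0.1), 1.71 without Model 1 and Model 3, 3.89 without the squamous-rich libraries and -0.60 to 2.41 when 1 mouse was left out. For the latter 3 settings that of Wnt6 was 0.89, 1.82 and -1.91 to 1.23, and that of Dkk2 0.081, 1.67 and -1.26 to 0.60. That of Wnt2b was 0.028 with the block and -0.30 to 0.25 when 1 mouse was left out. In Ctrl_Swim over Ctrl, Wif1 was at 0.21 with the block and Dkk2 at -0.025 without the squamous-rich libraries and -0.014 to 0.44 when 1 mouse was left out. In Model_Swim over Ctrl_Swim, Rspo3 was at -0.029 with the block, -0.042 without the squamous-rich libraries and -0.015 to 0.17 when 1 mouse was left out, and Wnt11 at -0.093 to 0.29.

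The groups share replicate numbers, and no source used here says that these pair the mice. Same-numbered libraries had correlations of -0.26 to 0.56 (15 pairs, median 0.00) after removing group means, and others -0.56 to 0.45 (39 pairs, median -0.03). With 3 mice per group these correlations cannot decide whether the numbers stand for a pairing. With the replicate block Wnt6 in Model over Ctrl had an adjusted p of 0.119. Fits without Model 1 and Model 3 leave 1 Model mouse, and those without the squamous-rich libraries 1 Model and 1 Model_Swim mouse, each assumed to vary like the other groups. Wnt11 has no value in limma with its filter, and fits of only the groups compared do not exist for the averaged effect or the interaction. Wnt11 had 14 to 45 counts a library, and the part of depth in its lack of calls was not tested.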

Other observations

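Ligands at the limit of detection are given as values only. Wnt3a, a canonical ligand, had 0 counts in all 6 mice without AOM/DSS, and was at 0.38, 0.22 and 0 CPM in Model and at 0.11 CPM in Model_Swim 3 alone among its group. Wnt7a also had 0 counts without AOM/DSS, and was at 0.38 CPM in Model 1, 0.11 in Model_Swim 1 and 0.22 in Model_Swim 2. Wnt1 had counts in Model 1 alone, at 0.11 CPM. A count of 0 allows up to 0.153 to 0.172 CPM in these libraries. Lgr5, the stem cell receptor of R-spondins, was chosen after its values were seen and was at 54.1, 10.8 and 5.05 CPM in Model and 20.8 to 24.6 CPM in Model_Swim, against 10.2 to 19.5 CPM in mice without AOM/DSS. As for Wif1, Model 1 was highest, the 3 Model_Swim mice next, then Model 2 and Model 3, with a log2 fold change of 0.73 ± 0.62 in Model over Ctrl and an adjusted p of 0.389 by edgeR. Sfrp2, another secreted Frizzled-related protein, was at 9.81, 14.5 and 2.47 CPM in Model and 6.42 to 10.02 CPM in Model_Swim, against 2.58 to 4.56 CPM without AOM/DSS, so that Model 3 was below and the other 5 AOM/DSS mice above all of these. Averaged over swimming, its log2 fold change of 1.33 ± 0.35 had an adjusted p of 0.0136 by edgeR.

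Model 3 was at or near the Ctrl level for Wif1, Wnt6 and Notum and was the highest of the 12 mice for Sfrp1, Rspo3, Wnt5a and Wnt2b. Model 1 was the highest for Wif1, Dkk2, Wnt6 and Dkk3 and the lowest of the AOM/DSS mice for Wnt2b and Wnt11. No label used here tells these 2 mice apart.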
